A study of Mus musculus with 18 samples.

Results

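The genes described here encode 10 RNA-binding proteins that set how long cytokine mRNAs last, in bone marrow-derived macrophages (BMMs) of mice that lacked or overexpressed the glucocorticoid-induced leucine zipper (GILZ). They were chosen by name, with earlier results of these data known. Of the 10 names listed, 9 were found by gene symbol among the 38887 genes of the deposited data, and the remaining one, Auf1, was found under its current symbol Hnrnpd through a RefSeq synonym. All 10 passed the filter on low counts in each fit.

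BMMs were grown for 6 days with M-CSF from female C57BL/6J mice. They were sequenced untreated or 4 h after addition of LPS at 100 ng/ml, with 3 libraries in each of 6 groups. LPS is a bacterial cell wall product sensed by macrophages through TLR4. WT animals were, by the study's methods, mice with Cre recombinase under the endogenous Lyz2 promoter of myeloid cells. GILZ KO animals carried the same Cre and a loxP-flanked Tsc22d3 (Gilz) exon 6. GILZ TG animals carried that Cre and a Gilz-1 cDNA in the ROSA26 locus behind a loxP-flanked stop cassette. All 3 genotypes thus carried the Cre by these methods, and deletion or overexpression occurred only in cells in which the Lyz2 promoter had been active. By the methods, donors of BMMs were 10 to 23 weeks old. The study calls each library of a treatment a separate biological preparation and gives 3 mice per group.

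Libraries held between 14583055 and 38557029 reads on genes (median 24450362). Expression is given as TPM, which is scaled by transcript length and library total and allows genes to be compared, or as TMM-normalized CPM (counts scaled by the effective library size), which compare one gene between libraries. Tsc22d3 was at 16.5 ± 2.08 TPM in untreated WT, 2.34 ± 0.46 in GILZ KO and 155.9 ± 3.93 in GILZ TG (SD, n = 3 each). All 8 macrophage markers were above 1 TPM in every group. Lyz2, whose coding sequence the Cre knock-in interrupts, was between 11048 and 15401 TPM in untreated WT and between 17.2 and 53.1 TPM in both other genotypes, so that in comparisons with WT the Gilz allele and the state of Lyz2 cannot be told apart. GILZ TG replicates 1 and 2 stood apart in markers of other cell types, with values given below where a result rests on them. LPS changed much of the transcriptome. In the median gene the change was -0.02 (log2) on the TMM scale but -0.51 on the TPM scale and -0.60 with library totals. Changes with LPS are therefore relative to the median gene, and directions that depend on the scale are named.

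Inflammatory mRNAs are short-lived because their 3′ untranslated regions (UTRs) hold elements that attract decay factors. AU-rich elements, with the nonamer UUAUUUAUU as their best-known core, are bound by the zinc finger proteins of the ZFP36 family. Zfp36 encodes tristetraprolin, which recruits the CCR4-NOT deadenylase, and Zfp36l1 and Zfp36l2 encode its relatives. KSRP (Khsrp) brings decay enzymes to such elements, AUF1 (Hnrnpd) can promote or slow decay, and HuR (Elavl1) mostly protects the mRNAs it binds. Stem-loops in the 3′ UTR, as in Il6 and Tnf, are recognised by Regnase-1 (Zc3h12a), an endonuclease, and by Roquin-1 and Roquin-2 (Rc3h1 and Rc3h2). Zc3h12c encodes Regnase-3, a relative of Regnase-1.

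Several of these genes carry in their own mRNAs the nonamer that the ZFP36 family binds. In the longest annotated 3′ UTR of each gene (GRCm38, GENCODE vM21), a nonamer was found in 6 of the 10 genes, against 7.67% of 20994 protein-coding genes with a 3′ UTR. The sites of the 3 ZFP36 family genes and of both Roquin genes are shown with the first of several in Elavl1, and the first sites of the cytokine genes Tnf and Csf2 are given for comparison. Capitals mark the nonamer.

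Zfp36, chr7:28376951-28376979, minus strand: uaugacgacuUUAUUUAUUguauuaagau
Zfp36l1, chr12:80108167-80108195, minus strand: aacuguuggaUUAUUUAUUuuagaaauuc
Zfp36l2, chr17:84184914-84184942, minus strand: acuauuuaacUUAUUUAUUaucuugugaa
Rc3h1, chr1:160970043-160970071, plus strand: acuuuacucaUUAUUUAUUgagaugagga
Rc3h2, chr2:37373287-37373315, minus strand: caaagacauuUUAUUUAUUuuacucugua
Elavl1, chr8:4285788-4285816, minus strand: gucaugaaaaUUAUUUAUUuauuuauuua
Tnf, chr17:35199689-35199717, minus strand: uuugcacuuaUUAUUUAUUauuuauuuau
Csf2, chr11:54247329-54247357, minus strand: uuuuaaauauUUAUUUAUUuauuuauuua

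Zfp36, Zfp36l1, Zfp36l2, Rc3h1 and Rc3h2 held 1 nonamer each. Elavl1 held 8 matches, all but the one at base 3816 overlapping with another, in a 3′ UTR of 4218 bases, as in 0.13% of the 1510 UTRs of like length (0.8 to 1.25 times its own), where 18.01% hold at least one. A nonamer is found in 4.17% of UTRs as long as that of Zfp36 (774 bases), in 10.2% for Zfp36l1 and 10.09% for Zfp36l2, and in 28.3% for Rc3h1 (7181 bases) and 22.38% for Rc3h2. No nonamer was found in the 3′ UTRs of Zc3h12a, Zc3h12c, Khsrp and Hnrnpd. Among 18 mRNAs known as targets of these proteins, 8 held a nonamer, with 5 matches in Tnf and 4 each in Csf2 and Cxcl2. A match is a description of the sequence and not evidence of binding.

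Promoters of 9 of the 10 genes were in the RefSeq table (GRCm38.p6, 250 bases before to 50 after the start), with 2 entries for Zc3h12c and none for Zfp36l2. The windows of Zfp36 and Zfp36l1 are shown because these paralogs moved in opposite directions after LPS. Capitals mark matches to 6 motifs searched on both strands.

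Zfp36, chr7:28379179-28379478, minus strand: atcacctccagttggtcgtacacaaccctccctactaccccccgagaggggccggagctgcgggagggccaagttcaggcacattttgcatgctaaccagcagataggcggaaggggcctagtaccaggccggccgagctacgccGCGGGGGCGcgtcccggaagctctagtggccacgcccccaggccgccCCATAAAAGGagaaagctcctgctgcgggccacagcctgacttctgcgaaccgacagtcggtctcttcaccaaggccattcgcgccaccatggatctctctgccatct
Zfp36l1, chr12:80112964-80113263, minus strand: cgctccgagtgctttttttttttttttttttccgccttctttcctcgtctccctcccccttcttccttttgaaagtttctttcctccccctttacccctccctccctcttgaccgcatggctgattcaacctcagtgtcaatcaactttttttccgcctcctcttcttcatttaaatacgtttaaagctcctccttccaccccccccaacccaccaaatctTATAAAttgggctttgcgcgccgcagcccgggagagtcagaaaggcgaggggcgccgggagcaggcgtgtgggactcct

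In Zfp36 the serum response element motif, bound by SRF, matched at -58 to -49 from the start, and the EGR motif GCGGGGGCG matched at -105 to -97. Of all 32851 promoters in the table, 1.63% hold the former and 2.91% the latter. Zfp36l1 held the TATA box motif TATAAA at -29 to -24, as 13.6% of promoters do. Further matches were an AP-1 motif in Rc3h1 and a serum response element motif in Hnrnpd. The kappaB motif is found in 4.51% of promoters and was matched in none of the 10 windows, and the CRE motif (1.79% of promoters) was likewise not matched. This says only that these letters do not occur in these windows.

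In untreated BMMs, Hnrnpd was expressed most, at 406.0 ± 29.0 TPM (SD, n = 9 libraries), followed by Zfp36l2 at 186.1 ± 7.08 TPM and Zfp36 at 151.9 ± 11.9 TPM. Khsrp was at 69.1 TPM, Zc3h12a at 31.8 TPM and Elavl1 at 24.7 TPM, and the ranges of these 6 genes over the 9 libraries did not overlap with the next in order. Zc3h12c (14.4 TPM), Zfp36l1 (13.8), Rc3h1 (10.2) and Rc3h2 (8.55) were lowest, each with a range that overlapped with the next. The order in TPM rests on the lengths used, for Hnrnpd an effective length of 1073 bases with 12 transcripts. In CPM, which are not scaled by length, untreated Zfp36l2 (median 287.6) lay above Hnrnpd (median 200.5). After LPS the order changed. Zfp36 was first at 1061 ± 76.5 TPM, then Hnrnpd at 286.4 and Zc3h12a at 142.1 TPM. Zc3h12c (42.3 TPM) and Zfp36l2 (38.9 TPM) overlapped, as did Elavl1 (20.11 TPM) and Rc3h1 (16.2 TPM), with Khsrp between these pairs at 27.1 TPM. Rc3h2 was at 10.6 TPM and Zfp36l1 was last, at 2.36 ± 0.65 TPM.

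**Figure D1:**
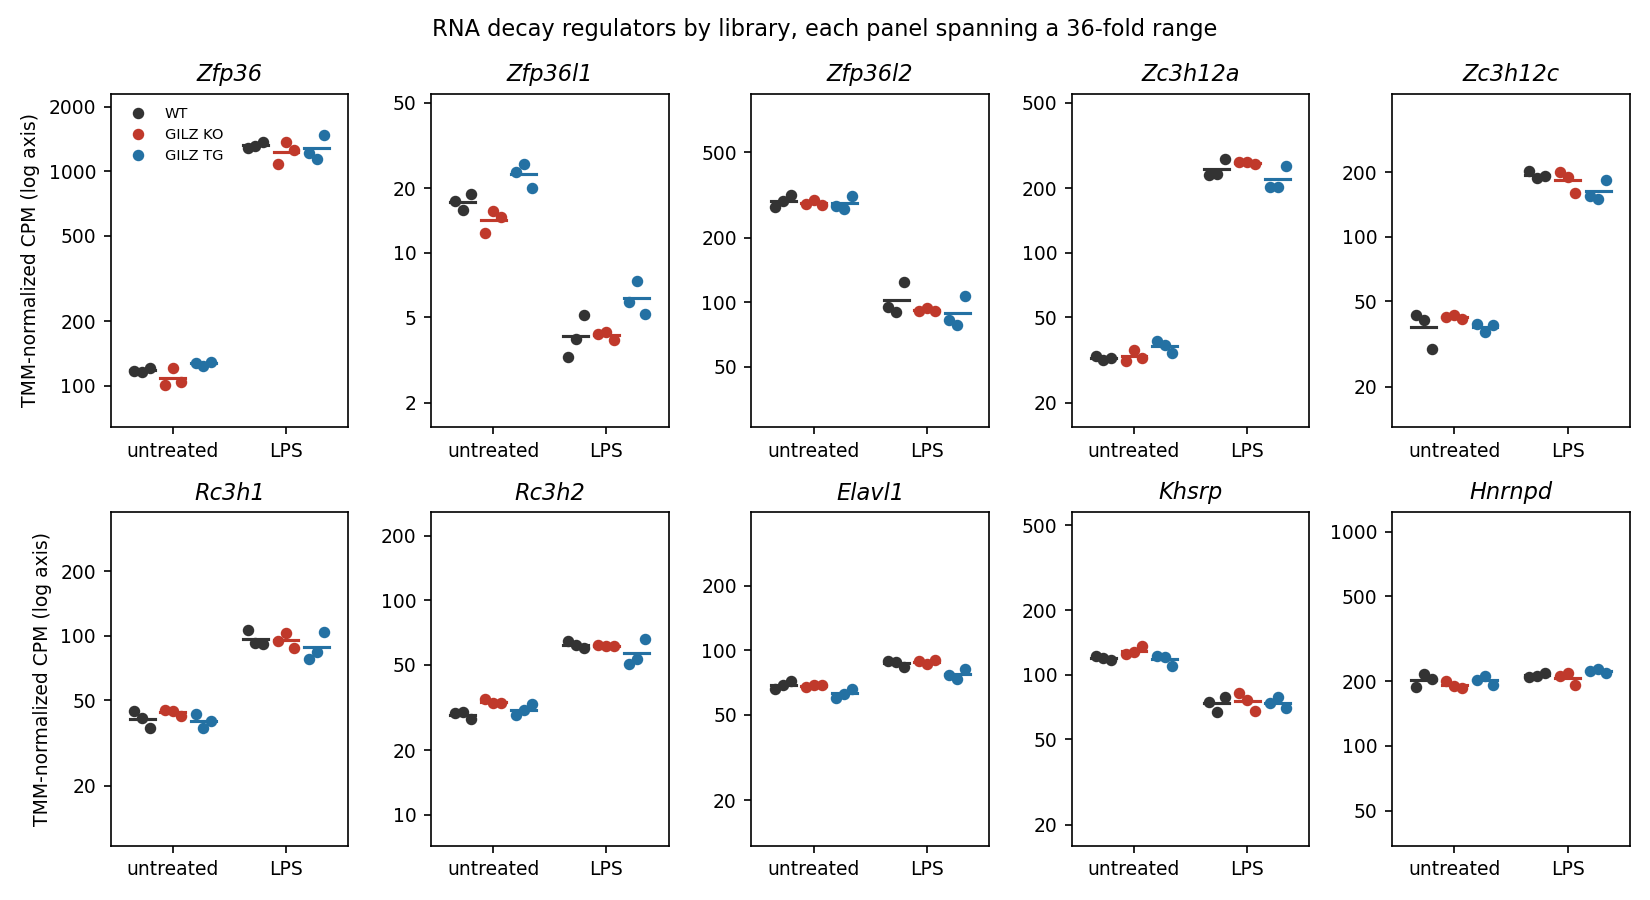
TMM-normalized CPM of the 10 genes on log axes, each panel spanning the same fold range, in untreated and LPS-treated BMMs. Each point is 1 library, colours are genotypes and horizontal lines are means of 3 libraries. Zfp36 lies at 100.4 to 129.3 CPM without treatment and at 1087 to 1475 CPM after LPS, while Zfp36l1 and Zfp36l2 lie lower after LPS. The small upward shift of Elavl1 and Hnrnpd turns downward on the TPM scale and with library totals.

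The first comparison asks how 4 h of LPS changed these genes in each genotype. Zfp36, both Regnase genes and both Roquin genes rose in all 3 genotypes, while Zfp36l1, Zfp36l2 and Khsrp fell. An adjusted p-value under 0.05 in edgeR's quasi-likelihood test was reached by 9 of 10 genes in WT, where 68.6% of the 13169 genes tested were called. Of these, 6 were higher (33.5% of all genes) and 3 lower (35.1%). In GILZ KO it was again 9 of 10 (68.5% of all genes), 6 higher (33.2%) and 3 lower (35.4%). In GILZ TG it was 10 of 10 (68.7% of all genes), 7 higher (33.6%) and 3 lower (35.1%). In the mean over genotypes 10 of 10 were called (80.1% of all genes), 7 higher (38.6%) and 3 lower (41.5%). On the log2(TPM + 1) scale with limma the split in the mean over genotypes was 5 higher and 5 lower, Elavl1 and Hnrnpd having changed sides, and 19.9% rather than 48.2% of all called genes were higher. With so many genes called, the count itself is near the background. The median absolute log2 fold change in the mean over genotypes was 1.395 for the 10 genes and 0.55 for all genes tested. Since the 10 genes were chosen with earlier results of these data known, this difference is only a description.

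Of the ZFP36 family, Zfp36 rose most. In WT it was at 117.3, 115.7 and 121.3 CPM without treatment and at 1284, 1315 and 1368 CPM after LPS. In GILZ KO the values were 100.4, 120.9 and 104.5 CPM without treatment and 1087, 1366 and 1262 CPM after LPS. In GILZ TG they were 128.3, 124.2 and 129.3 CPM, and 1222, 1145 and 1475 CPM. Every LPS library lay far above every untreated one. The log2 fold change was 3.44 in the mean over genotypes (SE 0.06, edgeR adjusted p = 1.35e-18), with 3.49 in WT, 3.51 in GILZ KO and 3.33 in GILZ TG.

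Both relatives went down. Zfp36l2 was between 271.3 and 315.2 CPM (median 287.6) in the 9 untreated libraries and between 78.0 and 123.7 CPM (median 91.4) after LPS, a log2 fold change of -1.63 (SE 0.07, edgeR adjusted p = 2.34e-13). Zfp36l1 was between 12.3 and 26.0 CPM (median 17.4) without treatment and between 3.27 and 7.40 CPM (median 4.26) after LPS, a log2 fold change of -1.92 (SE 0.09, edgeR adjusted p = 1.94e-12). Neither gene's treatment groups overlapped. Zfp36l1 rested on 49 to 204 reads per library after LPS, against 15696 to 38067 reads for Zfp36, and was thus measured less precisely.

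The makeup of the family turned over with these opposite changes. Zfp36 made up 40.1 to 45.5% of the family's summed TPM in untreated libraries and 95.5 to 96.6% after LPS. The difference was 53.1 percentage points in the mean over genotypes (53.2 in WT, 54.7 in GILZ KO and 51.6 in GILZ TG), with p = 0.00025 in a two-sided exact permutation test within genotypes, the smallest p-value that its 8000 arrangements allow. The summed level rose as well, from 349.6 ± 2.41 to 1131 ± 59.0 TPM in WT, from 340.5 ± 18.7 to 1078 ± 91.9 TPM in GILZ KO and from 365.1 ± 11.1 to 1098 ± 106.8 TPM in GILZ TG (SD, n = 3).

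**Figure D2:**
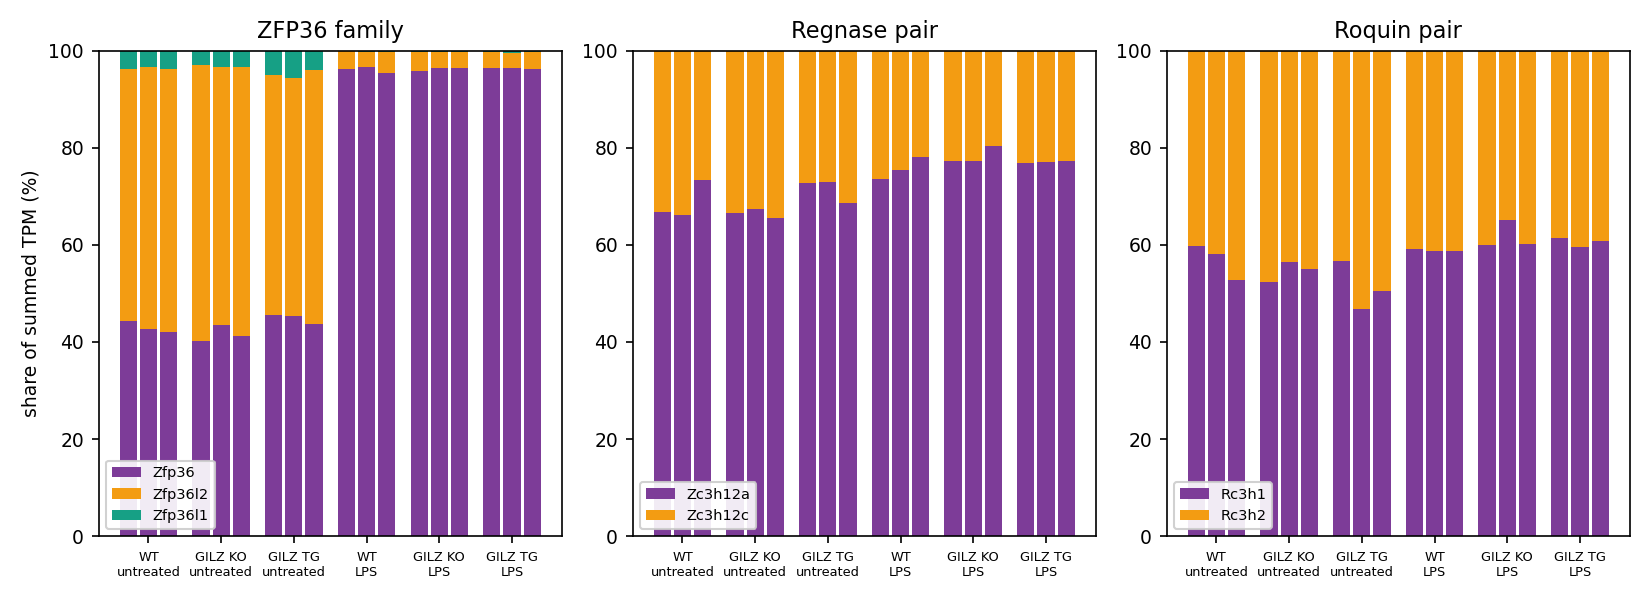
Share of summed TPM (%) held by each gene of the ZFP36 family, of the Regnase pair and of the Roquin pair. Each bar is 1 library, with 3 per group. Zfp36 takes 40.1 to 45.5% of its family without treatment and 95.5 to 96.6% after LPS, whereas the shares of the other families move by 8.12 and 6.16 percentage points (the latter 3.69 as shares of expected counts).

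Both Regnase genes rose. Zc3h12a was between 31.1 and 38.9 CPM (median 33.1) without treatment and between 201.4 and 272.5 CPM (median 254.4) after LPS, with a log2 fold change of 2.83 (SE 0.05, edgeR adjusted p = 4.72e-18). It was 2.92 in WT, 3.00 in GILZ KO and 2.58 in GILZ TG. Zc3h12c rose from 29.9 to 43.3 CPM (median 40.8) to 150.9 to 201.9 CPM (median 188.3), a log2 fold change of 2.19 (SE 0.07, edgeR adjusted p = 2.68e-15). Zc3h12a made up 65.6 to 73.4% of the pair's TPM without treatment and 73.6 to 80.3% after LPS, a difference of 8.12 points (two-sided exact permutation test, p = 0.00025, the smallest possible).

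The Roquin genes rose less. Rc3h1 was between 37.1 and 45.1 CPM (median 42.4) without treatment and between 77.9 and 106.8 CPM (median 92.3) after LPS, a log2 fold change of 1.16 (SE 0.06, edgeR adjusted p = 4.18e-12). Rc3h2 was between 27.9 and 34.6 CPM (median 30.7) and between 50.5 and 66.1 CPM (median 61.4), a log2 fold change of 0.94 (SE 0.05, edgeR adjusted p = 2.74e-12). The groups of neither gene overlapped. On the log2(TPM + 1) scale with limma, the change in Rc3h2 was 0.15 in GILZ KO and 0.16 in GILZ TG and no longer passed the threshold in either. The share of Rc3h1 in the pair moved from 46.8 to 59.7% to 58.7 to 65.2%, with overlapping ranges and a difference of 6.16 points (two-sided exact permutation test, p = 0.0015; 3.69 points as shares of expected counts, p = 0.0005), of which WT showed 2.01 points and GILZ TG 9.33 points.

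Among the AU-rich element-binding proteins outside the ZFP36 family, Khsrp fell from 110.3 to 136.6 CPM (median 122.9) to 67.3 to 82.5 CPM (median 74.9), a log2 fold change of -0.72 (SE 0.04, edgeR adjusted p = 4.20e-11). Elavl1 was between 59.9 and 72.3 CPM (median 67.3) without treatment and between 73.9 and 90.5 CPM (median 86.1) after LPS, a log2 fold change of 0.34 (SE 0.03, edgeR adjusted p = 2.20e-08) that turned to -0.28 on the log2(TPM + 1) scale and to -0.33 with library totals. Hnrnpd overlapped between treatments, at 185.7 to 216.8 CPM (median 200.5) and 193.1 to 227.8 CPM (median 218.6). Its log2 fold change of 0.11 (SE 0.04, edgeR adjusted p = 0.00954) turned to -0.50 on the log2(TPM + 1) scale and to -0.55 with library totals. In single genotypes Hnrnpd was called only in GILZ TG (0.14, edgeR adjusted p = 0.0441), not in WT (0.07, 95% interval -0.06 to 0.20) or GILZ KO (0.11, -0.02 to 0.24). The call in GILZ TG was lost with no filter (edgeR adjusted p = 0.183), with the stricter filter (0.0748), with only the 6 libraries of the genotype (0.108) and on leaving out any library of GILZ TG but LPS replicate 3 (0.0679 to 0.23) or its replicates 1 and 2 (0.183), and DESeq2 also called Hnrnpd in GILZ KO (DESeq2 adjusted p = 0.0339). The call in the mean over genotypes was lost with no filter (edgeR adjusted p = 0.104) and on leaving out 6 of the 18 libraries in turn, which were untreated replicates 1 and 3 of WT, 2 and 3 of GILZ KO and 1 and 3 of GILZ TG (0.0534 to 0.092). Where the call in GILZ TG or in the mean was lost, 9 of 10 genes were called in place of 10. Relative to the median gene, Khsrp fell, Elavl1 rose by 0.34 and Hnrnpd kept close to it. As shares of all transcripts all 3 were lower after LPS.

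**Figure D3:**
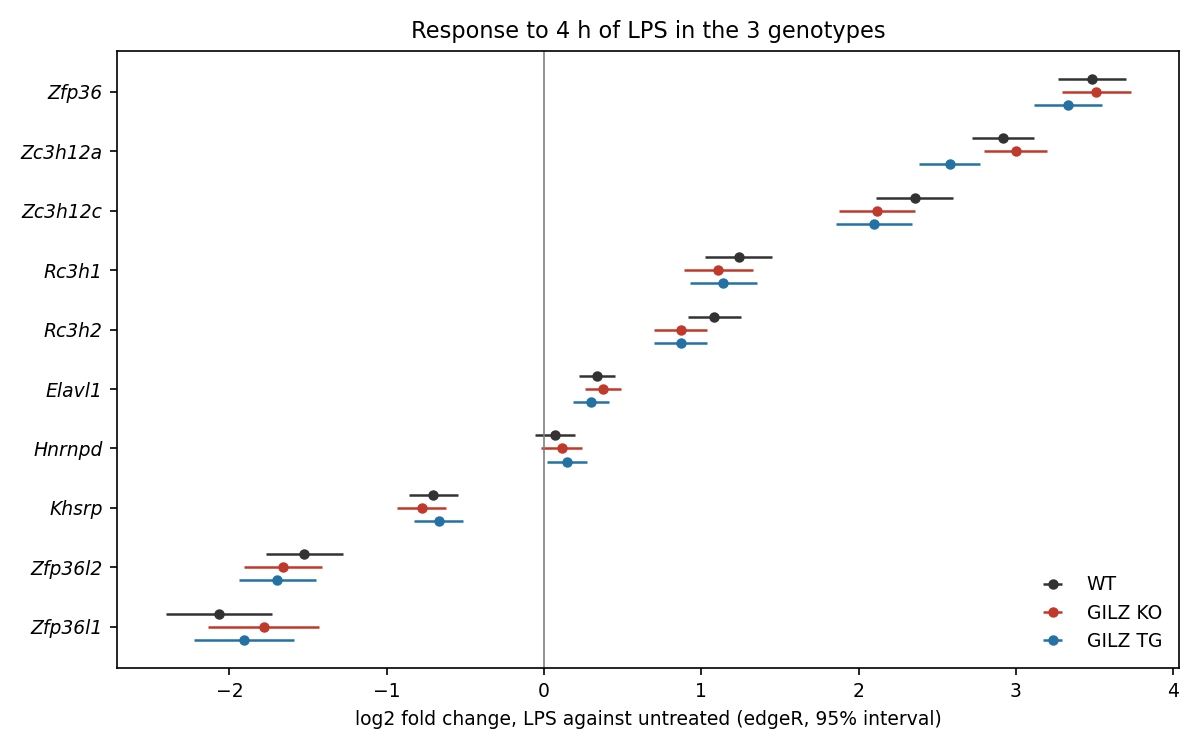
Log2 fold change of LPS against untreated BMMs (edgeR, TMM scale) with 95% intervals, for each gene and genotype. Genes are ordered by the mean over genotypes, from Zfp36 at 3.44 to Zfp36l1 at -1.92, and the 3 genotypes lie close together for each gene. Elavl1 (0.34) and Hnrnpd (0.11) are below 0 on the TPM scale and with library totals.

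The second comparison asks whether the LPS response differed between genotypes. In edgeR, 0 of 10 genes differed between GILZ KO and WT, where 0.0152% of all genes did, and 0 of 10 had an unadjusted p under 0.05. The differences in log2 fold change lay between -0.24 and 0.29. For GILZ TG against WT, 0 of 10 were called (0.00759% of all genes), 1 had an unadjusted p under 0.05, and differences lay between -0.34 and 0.16. For GILZ KO against GILZ TG, 0 of 10 were called (0.121% of all genes), 1 had an unadjusted p under 0.05, and differences lay between -0.11 and 0.42. DESeq2 and limma on log2(TPM + 1) also called 0 of 10 in each. The interval was widest for Zfp36l1 in GILZ KO against WT, from -0.21 to 0.78. The 0.42 belonged to Zc3h12a (SE 0.12, 95% interval 0.15 to 0.68, edgeR adjusted p = 0.209), which was called when GILZ TG LPS replicate 3 was left out.

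The third comparison asks whether these genes differed between genotypes at a given treatment. Against WT, the Gilz allele and the state of Lyz2 cannot be told apart. In 6 comparisons of genotypes within a treatment, 1 of the 60 values passed the threshold. It was Zfp36l1, lower in untreated GILZ KO than in GILZ TG. Comparisons of 3 against 3 libraries cannot give an exact permutation p-value under 0.1 for a single gene. The comparisons share libraries and are not independent of each other.

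For GILZ KO against WT, 0 of 10 genes were called without treatment (0.0951% of all genes) and 0 of 10 after LPS (0.0822%) in edgeR, as in DESeq2 and limma. At an unadjusted p under 0.05 there were 2 without treatment and 0 after LPS. The log2 fold changes lay between -0.29 and 0.20 without treatment and between -0.14 and 0.13 after LPS. In untreated BMMs 2 genes did not overlap on the TPM scale, as did 17.2% of all genes. Rc3h2 was at 10.6, 8.83 and 9.52 TPM in GILZ KO and at 7.91, 7.65 and 6.70 TPM in WT, and Khsrp was at 71.7, 72.2 and 78.2 TPM against 70.4, 67.4 and 62.9 TPM. After LPS, 0 of 10 were without overlap (16.3% of all genes). Tsc22d3 was then at 5.15 TPM in WT and 2.91 TPM in GILZ KO, a smaller difference than without treatment.

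For GILZ TG against WT, 0 of 10 genes were called without treatment (0.642% of all genes) and 0 of 10 after LPS (0.46%) in edgeR, with 3 each at an unadjusted p under 0.05. DESeq2 called 1 without treatment, Zfp36l1, and 0 after LPS, and limma called 0 in both. In untreated BMMs, Zfp36, Zfp36l1, Rc3h2 and Elavl1 did not overlap on the TPM scale, 4 of 10 where 14.9% of all genes did not. In CPM, Rc3h2 overlapped (29.1 to 32.8 in GILZ TG, 27.9 to 30.1 in WT). So did Elavl1 (59.9 to 66.3 CPM in GILZ TG, 66.2 to 72.3 in WT). Zfp36 was at 166.8, 160.3 and 163.9 TPM in GILZ TG and at 153.7, 149.0 and 147.9 TPM in WT, and Elavl1 was at 22.4, 23.2 and 24.1 TPM against 24.9, 25.4 and 25.4 TPM. After LPS, Zc3h12c and Elavl1 did not overlap on the TPM scale, 2 of 10 where 15.2% of all genes did not. Zc3h12c was at 36.2, 36.8 and 41.3 TPM in GILZ TG and at 46.6, 43.1 and 45.7 TPM in WT, a log2 fold change of -0.24 (95% interval -0.44 to -0.04, edgeR adjusted p = 0.226).

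GILZ KO and GILZ TG lie farthest apart in Tsc22d3 mRNA. In untreated BMMs 1 of 10 was called, where 4.94% of all genes were, and after LPS 0 of 10, where 2.6% were, with 3 each at an unadjusted p under 0.05. After LPS, DESeq2 and limma called 0 of 10. Without treatment, Zfp36, Zfp36l1, Zc3h12c, Rc3h1, Elavl1 and Khsrp did not overlap on the TPM scale. That was 6 of 10, where 28.7% of all genes did not overlap. In CPM, Rc3h1 overlapped (42.4 to 45.1 in GILZ KO, 37.2 to 43.1 in GILZ TG). Zfp36 was lower in GILZ KO, at 131.2, 157.0 and 136.9 TPM against 166.8, 160.3 and 163.9 TPM in GILZ TG (log2 fold change -0.24, 95% interval -0.39 to -0.09, edgeR adjusted p = 0.0664), and DESeq2 called it. The other 4 that were not called were higher in GILZ KO, by 0.11 to 0.15 (log2) on the TMM scale. After LPS, Zfp36l1, Zc3h12a and Elavl1 did not overlap on the TPM scale, 3 of 10 where 20.6% of all genes did not. Zc3h12a was then at 166.8, 150.4 and 152.6 TPM in GILZ KO and at 119.7, 123.2 and 141.4 TPM in GILZ TG (0.27, 95% interval 0.06 to 0.48, edgeR adjusted p = 0.142).

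**Figure D4:**
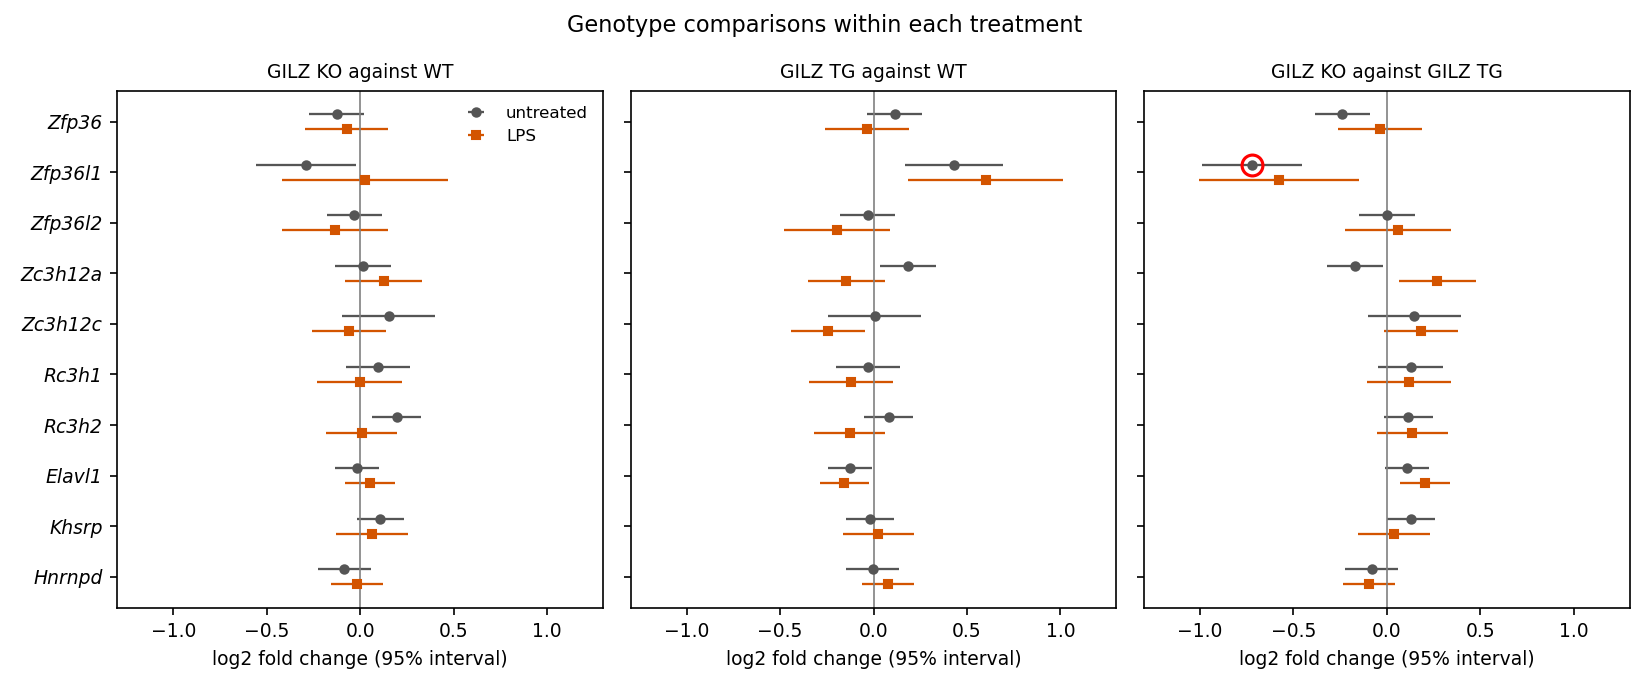
Log2 fold changes with 95% intervals (edgeR) of the 10 genes between genotypes, for untreated and LPS-treated BMMs. The red circle marks Zfp36l1 in GILZ KO against GILZ TG without treatment (-0.72), which alone passed an adjusted p-value of 0.05, and the 9 other genes lie within 0.3 of 0 in every comparison.

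Zfp36l1 was at 9.45, 11.9 and 11.3 TPM in untreated GILZ KO, at 13.4, 11.9 and 13.5 TPM in WT and at 18.2, 19.7 and 14.9 TPM in GILZ TG. GILZ KO and GILZ TG did not overlap, and the log2 fold change between them was -0.72 (SE 0.12, 95% interval -0.99 to -0.46, edgeR adjusted p = 0.014). Against WT it was -0.29 in GILZ KO (95% interval -0.56 to -0.02, edgeR adjusted p = 0.508) and 0.43 in GILZ TG (0.17 to 0.69, edgeR adjusted p = 0.147). After LPS it was at 2.12, 2.21 and 1.91 TPM in GILZ KO, 1.57, 1.89 and 2.51 TPM in WT and 2.86, 3.76 and 2.43 TPM in GILZ TG, with a log2 fold change of -0.58 between GILZ KO and GILZ TG (-1.004 to -0.15, edgeR adjusted p = 0.134). The call without treatment was lost without GILZ KO replicate 1 (-0.62, edgeR adjusted p = 0.0686), GILZ KO replicate 3 (-0.75, 0.0515) or GILZ TG replicate 2 (-0.63, 0.0653), with log2 fold changes close to that of all libraries.

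Markers of other cell types also differed between the untreated libraries. The summed TPM of 8 stromal markers was 100.8, 115.2 and 9.75 in untreated GILZ TG replicates 1, 2 and 3, between 11.2 and 21.8 in WT and between 4.88 and 11.4 in GILZ KO, with 5, 3 and 3 of the 8 above 1 TPM. Lum was at 0 in WT and GILZ KO. The 8 neutrophil lineage markers summed to 174.3, 450.7 and 63.4 TPM in GILZ TG, 22.5 to 56.0 TPM in WT and 28.4 to 57.2 TPM in GILZ KO. Of these, 5, 3 and 4 were above 1 TPM, and Ly6g was at 0 in WT and GILZ KO. The 6 B cell markers summed to 49.2, 55.4 and 24.5 TPM, against 30.0 to 35.4 TPM in WT and 31.6 to 33.3 TPM in GILZ KO, with 2 above 1 TPM in each and Pax5 at 0 in all 3. Endothelial markers were lower in GILZ TG, at 35.0 to 36.1 TPM against 46.1 to 50.4 TPM in the other genotypes, and T cell and erythroid markers summed to less than 1 TPM in every library. GILZ TG replicate 3 lay below every WT library in stromal markers (9.75 TPM). It lay above every WT library in neutrophil lineage markers (63.4 TPM) and in Zfp36l1 (14.9 TPM). The 2 GILZ TG libraries with most Zfp36l1 were those with most stromal and neutrophil marker RNA. Without them the log2 fold change of Zfp36l1 was -0.50 (edgeR adjusted p = 0.168), with 1 GILZ TG library left that is assumed to vary like the other groups. The part of these cells in the result was not tested, and more cells of a type or more RNA per cell cannot be told apart in bulk RNA.

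**Figure D5:**
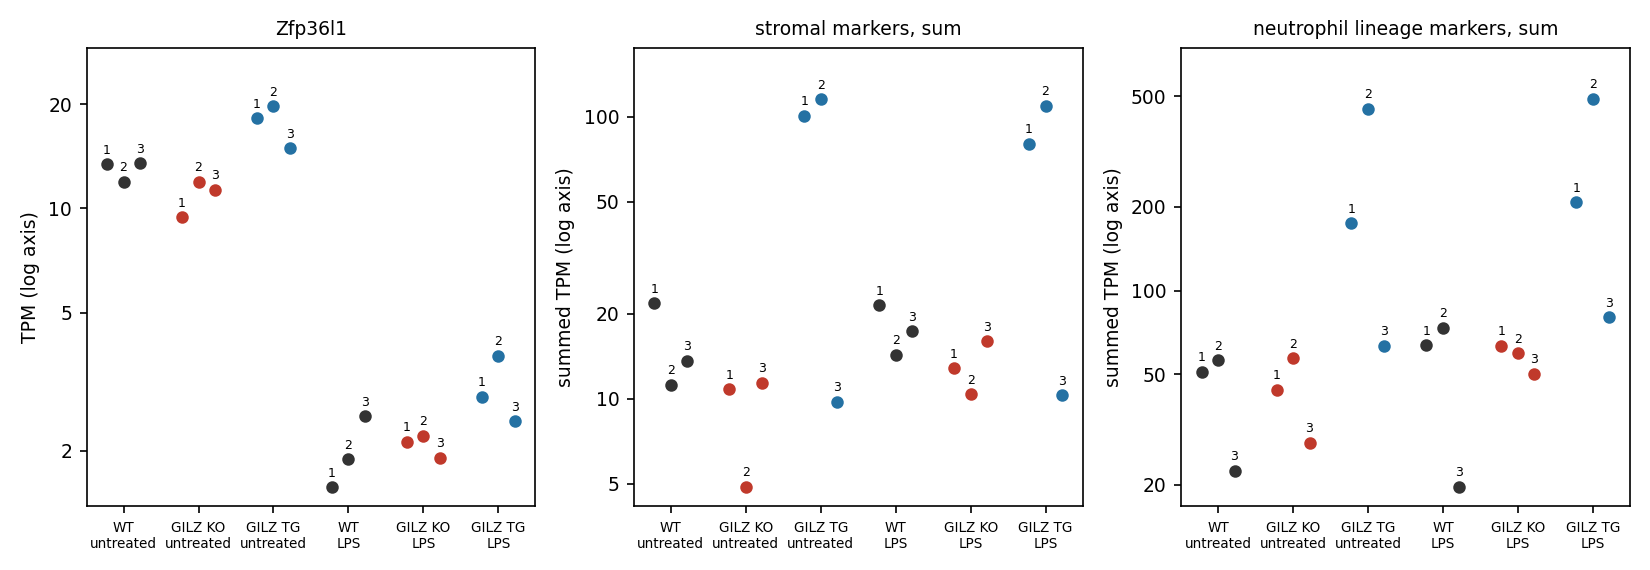
TPM of Zfp36l1 and summed TPM of 8 stromal and 8 neutrophil lineage markers on log axes, by group. Each point is 1 library, labelled with its replicate number. GILZ TG replicates 1 and 2 lie highest in Zfp36l1 without treatment (18.2 and 19.7 TPM) and in stromal markers (100.8 and 115.2 TPM), and replicate 3 lies lower in both.

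The machinery and the targets around these proteins were described by lists, whose directions after LPS depend on the scale. Fold changes are on the TMM scale, and counts on the log2(TPM + 1) scale with limma follow those of edgeR. Library totals gave the same counts as limma on the TPM scale. Higher and lower count genes with an adjusted p under 0.05. Of all called genes, 48.2% were higher in edgeR and 19.9% with limma on the TPM scale. A split near these shares is no result about a list. Of 16 tested relatives and other RNA-binding proteins, 12 were higher and 4 lower after LPS in the mean over genotypes (median log2 fold change 0.20, against -0.02 for all genes), but 3 higher and 13 lower on the TPM scale. The largest changes were in Arid5a (5.02, SE 0.08, edgeR adjusted p = 3.38e-19), which stabilises Il6 mRNA against Regnase-1, N4bp1 (3.04, SE 0.03), an endonuclease related to Regnase-1, and Igf2bp2 (2.37, SE 0.08), a reader of methylated mRNA. Arid5a was between means of 2.42 TPM in untreated WT and 100.7 TPM in GILZ TG after LPS.

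Of 19 genes of CCR4-NOT and other deadenylation, 9 were higher and 7 lower after LPS, with a median of -0.01, and 3 higher and 14 lower on the TPM scale. Btg2 (2.53, SE 0.07), Btg1 (1.00, SE 0.08), which bind the CCR4-NOT deadenylases, and Noct (1.46, SE 0.05), which encodes nocturnin, changed most. Of 11 decapping and 5′ decay genes, 5 were higher and 2 lower (median 0.07), and 3 and 8 on the TPM scale. The largest changes were in the decapping enzyme Dcp2 (2.44, SE 0.05), the exonuclease Xrn1 (2.42, SE 0.09) and the decapping cofactor Dcp1a (1.29, SE 0.04). Of 14 exosome genes, 6 were higher and 8 lower (median -0.35), and 0 and 14 on the TPM scale. The core subunits Exosc7 (-1.14, SE 0.05), Exosc2 (-0.85, SE 0.05) and Exosc1 (-0.72, SE 0.06) fell most.

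Most enzymes that act on these proteins were higher. Of 13 kinases, phosphatases and proteases, 12 were higher and 1 lower after LPS (median 0.93), and 8 and 4 on the TPM scale. Malt1, the protease that cleaves Regnase-1 and Roquin, rose by 3.81 (SE 0.08, edgeR adjusted p = 9.49e-18), and Mapkapk2, the kinase MK2 that phosphorylates tristetraprolin, by 3.00 (SE 0.07). Tbk1 rose by 1.62 (SE 0.04). Mapkapk2 reached means of 1180 TPM in WT, 1282 in GILZ KO and 1120 in GILZ TG after LPS.

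Of the 18 target mRNAs, 18 were higher after LPS on either scale and none lower, and their median log2 fold change was 5.57. This list too was chosen with earlier results of these data known, so the count describes these genes only. Il6 rose by 11.5 (SE 0.26), Il1a by 10.4 (SE 0.31) and Il1b by 10.0 (SE 0.32). These cytokine mRNAs and the mRNAs of Zfp36 and Zc3h12a were high in the same libraries, at a single time after LPS.

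Between genotypes few genes of these lists were called, and all calls were between GILZ KO and GILZ TG. There 4.94% of all genes were called without treatment and 2.6% after LPS. The lists held 16, 19, 11, 14, 13 and 18 genes tested with LPS. The number of calls was near these shares and is no result about the lists. Noct was lower in GILZ KO without treatment (-0.34, SE 0.07, edgeR adjusted p = 0.033, 20.8 ± 1.48 against 26.3 ± 0.57 TPM) and after LPS (-0.38, SE 0.08, edgeR adjusted p = 0.0401). Leaving out 1 library at a time kept the former call only without GILZ TG replicate 3 (edgeR adjusted p otherwise up to 0.131) and the latter only without GILZ KO replicate 2 or GILZ TG replicate 3 (up to 0.183). Exosc5 (-0.34, SE 0.07, edgeR adjusted p = 0.028) and the chemokine gene Ccl3 (-0.42, SE 0.08, edgeR adjusted p = 0.0234) were lower in GILZ KO without treatment. Leaving out 1 library kept the call of Exosc5 only without GILZ TG replicate 3 (otherwise up to 0.113) and that of Ccl3 only without GILZ TG replicate 1 or 3 (up to 0.0971). With limma on log2(TPM + 1), Noct (limma adjusted p = 0.0827 and 0.0759) and Exosc5 (0.0593) were not called.

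After LPS, 2 of the 18 target mRNAs were called and higher in GILZ KO than in GILZ TG. Il12b, which encodes the shared subunit of interleukin 12 and interleukin 23, was at 48.7 ± 6.78 TPM in GILZ KO, 33.1 ± 2.51 in WT and 17.8 ± 5.12 in GILZ TG (log2 fold change 1.43, SE 0.18, edgeR adjusted p = 0.00585). It was called under every alternative run, with 1.25 to 1.91 on the log2 scale. Csf2, the gene of GM-CSF, was at 18.2 ± 3.55, 8.22 ± 1.79 and 4.59 ± 2.99 TPM (2.05, SE 0.36, edgeR adjusted p = 0.0183). Leaving out 1 library kept its call only without GILZ KO replicate 2 or GILZ TG replicate 3 (otherwise 0.0562 to 0.107), with log2 fold changes of 1.72 to 2.65. In these LPS libraries the stromal markers summed to 80.2, 109.3 and 10.3 TPM and the neutrophil lineage markers to 207.7, 488.7 and 80.1 TPM in GILZ TG replicates 1, 2 and 3, against 10.4 to 16.01 and 50.3 to 63.3 TPM in GILZ KO. Without GILZ TG replicates 1 and 2 the log2 fold change of Csf2 was 1.14 (edgeR adjusted p = 0.168) and that of Il12b 1.91 (0.00463), while Noct was at -0.33 (0.197) and -0.31 (0.356), Exosc5 at -0.35 (0.171) and Ccl3 at -0.53 (0.0943). Il12b carried no nonamer in its 3′ UTR and Csf2 carried 4.

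The genes whose levels over the 18 libraries were most like those of a member are given by Pearson's r of log2(TPM + 1), as a description, since treatment dominates all of them. Zfp36 was most like Nfkbiz (0.999), Ccl3 and Slfn2 (both 0.998), of which the first encodes an atypical IκB protein. Zc3h12a was most like Adora2a, Tnip1 and Lad1 (0.994 to 0.995) and Zc3h12c most like Tet2, Nr3c1 and Coa5 (all 0.993). Of these, Adora2a encodes an adenosine receptor, Tnip1 a partner of A20, Tet2 a DNA demethylating enzyme and Nr3c1 the glucocorticoid receptor. Zfp36l1 was most like Lrfn4, Mbd3 and Nanos1 (0.990 to 0.996), and Zfp36l2 most like Cdk20, Pcyt2 and 1700066M21Rik (0.996 to 0.997), all of which lay lower after LPS. Khsrp was most like Rab31, Mbtps1 and Fam168b (all 0.996) and Hnrnpd most like Gar1, Ewsr1 and Rtf1 (0.972 to 0.981). Rc3h1 (Ifnar1, Ppip5k2 and Trip12, 0.964 to 0.967), Elavl1 (Fcho1, Arhgdib and Phlda3, 0.971 to 0.980) and Rc3h2 (Rps6ka3, Myof and Psd3, 0.878 to 0.904) followed, the last with the lowest values of all.

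On GRCm38 the 10 genes lie on 9 chromosomes, and all are protein-coding. Zfp36 spans chr7:28376784-28380253 on the minus strand, Zfp36l1 chr12:80107754-80113013 on the minus strand and Zc3h12a chr4:125118423-125127840 on the minus strand. Same-strand transcripts overlap Rc3h1 (Gm37052, Gm37809 and Gm37653) and Rc3h2 (Snord90), and strand cannot separate their reads. Opposite-strand transcripts overlap Zfp36 (Gm44710), Zfp36l1 (Gm26669), Zfp36l2 (AC132455.1), Zc3h12c (Mir6244), Elavl1 (Ccl25), Khsrp (Gm17949) and Hnrnpd (Gm17092). The kit preserved strand, but the sources used here do not state whether the counting used it, so reads from these overlaps may be shared. Expected counts were whole in all libraries for 9 genes and in all but 1 library for Khsrp, so reads were rarely divided with other genes.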

How the data were processed

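RNA of untreated and LPS-treated BMMs was sequenced in 18 libraries as single reads from a directional poly(A) kit. The authors ran FastQC 0.11.2 and the grape-nf pipeline and mapped to GRCm38, and the annotation release is not given in the sources used here. The deposited files give per library the expected count (estimated reads per gene, not normalized) and the authors' TPM. The deposited DESeq2 1.40.2 tables hold the authors' own fold changes and p-values and served only to pair identifiers with symbols. Expected counts were rounded, filtered (filterByExpr), TMM-normalized and tested by edgeR 4.0.16 (R 4.3.3) with Benjamini-Hochberg adjustment over all genes and a threshold of 0.05. LPS effects and their differences came from 1 fit of 18 libraries, genotype comparisons from the 9 libraries of a treatment. Standard errors were derived from the F statistic. Alternatives were DESeq2 1.42.0, edgeR with DESeq2's size factors, limma 3.58.1 on log2(TPM + 1) or with 0.1 in place of 1, a filter of 10 counts or none, other sets of libraries, replicate blocks and leaving out libraries, and library totals, added after seeing the data. Scripts were tested on simulated counts. Depth (14583055 to 38557029 reads) limits genes with few reads. Genes named were all 10 members in comparisons where they were called or did not overlap, called genes of 6 lists between genotypes, the 3 of each list that changed most with LPS, the 3 most like each member, and Tsc22d3. Lyz2 and marker genes were added after values were seen. The members and lists were chosen with earlier results of these data known.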

Additional observations from a re-analysis of the deposited data

How the results depend on the processing

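Of the alternatives computed for single genes, 957 kept the direction and the call, 24 lost the call, 11 gained one and 25 changed sign. All sign changes concerned the LPS effect on Elavl1 and Hnrnpd. The median gene moved by -0.51 on the TPM scale and -0.60 with library totals, against -0.02 on the TMM scale. With library totals (chosen after seeing the data), limma on log2(TPM + 1) and limma on log2(TPM + 0.1), Elavl1 was at -0.34, -0.28 and -0.29 in WT, -0.26, -0.25 and -0.26 in GILZ KO, -0.38, -0.32 and -0.33 in GILZ TG and -0.33, -0.28 and -0.29 in the mean. In the same order, Hnrnpd was at -0.61, -0.54 and -0.55 in WT, -0.53, -0.51 and -0.51 in GILZ KO, -0.53, -0.45 and -0.45 in GILZ TG and -0.55, -0.50 and -0.50 in the mean, and at -0.02 in WT without WT untreated replicate 1, where leaving out 1 library gave -0.02 to 0.0841. The counts of genes called with LPS stayed within 1.5 times under all alternatives.

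Between untreated GILZ KO and GILZ TG, DESeq2 called 2 genes, and 0 were called without GILZ TG replicates 1 and 2, where fewer libraries are compared. Leaving out 1 library at a time gave 0 to 2 genes. Between untreated GILZ TG and WT, DESeq2 called 1 gene, and leaving out 1 library gave 0 to 1, the 1 being Zfp36l1 without GILZ TG replicate 3 (edgeR adjusted p = 0.0219). After LPS, leaving out 1 library gave 0 to 3 genes for GILZ TG against WT and 0 to 4 for GILZ KO against GILZ TG, both highest without GILZ TG replicate 3, where Zfp36l1, Zc3h12c and Rc3h2, and Zfp36l1, Elavl1, Zc3h12a and Rc3h2 were called. A fit of all 18 libraries called 1, Elavl1 (0.19, edgeR adjusted p = 0.0468), in the latter. For the LPS response of GILZ KO against GILZ TG it gave 0 to 1. The cause was not tested for these.

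The replicate numbers did not pair the libraries throughout. Of 9 pairs of untreated and LPS libraries with the same number, 4 correlated above 0.1 (3 of 3 in GILZ TG, 0.266 to 0.605, but 0 of 3 in GILZ KO), and of 18 pairs of genotypes 2 did. A library correlated best with its own number in 11 of 18 and 8 of 36 cases, where 1 in 3 would do so without pairing. In GILZ TG, untreated replicate 1 correlated more with LPS replicate 2 (0.347) than with LPS replicate 1 (0.266). With the number as a block, the counts were 9, 9 and 10 with LPS, 1 for untreated GILZ KO against GILZ TG and 0 in the other genotype comparisons and response differences, as without it.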
